A study of Mus musculus with 120 samples.

Results

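The Rbm genes are the genes whose symbol starts with Rbm followed by a digit or the letter x, with Rbm3 left out, in RNA from mouse liver. The rule used the symbols alone and no measured value. It gave 35 of the 12252 genes of the gene table, with 155 of its 41105 transcripts. Among the 35 is Rbm3-ps, a processed pseudogene that shares 92.9% of its 31-base words with other genes (85.5% with Rbm3). Reads of Rbm3 may thus be counted in it. A further 13 annotated symbols that match the rule, such as Rbm11, Rbm24 and Rbm46, were not analysed here.

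Proteins of the RNA-binding motif family carry RNA recognition motifs, a small fold that grips single-stranded RNA. Most act in the nucleus, where they choose splice sites, sit in the spliceosome, hand RNA to the nuclear exosome or guide the methylation of adenosines. Many splicing regulators also act on their own pre-mRNA, by leaving in an intron or by including an exon with a premature stop codon. An mRNA that keeps an intron often stays in the nucleus, and one that reaches the cytoplasm with a premature stop can be removed by nonsense-mediated decay (NMD).

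The livers came from Cry1-/- Cry2-/- mice (CryKO), which lack both cryptochrome repressors of the circadian clock in all cells, and from C57BL/6 mice (WT). The WT mice were males of 8 to 12 weeks, kept in 12:12 light and dark and fed at night only from 3 days before sampling. Age and sex of the CryKO mice, and whether both genotypes were prepared together, are not given in the sources used here, so that genotype and preparation cannot be told apart. Livers were taken every 4 h, at 6 times from ZT0 (lights on) to ZT20, with 2 mice at each time and genotype. Each liver gave nuclear total (NT), nuclear poly(A) (NA), cytoplasmic total (CT), cytoplasmic poly(A) (CA) and unfractionated total (UT) RNA, or 120 libraries in all. The suffix E marks mRNA counts and I marks pre-mRNA counts, so that NAE is nuclear poly(A) mRNA and NTI is nuclear total pre-mRNA. Levels are in CPM, counts scaled to a common total of mRNA counts with TMM factors, and describe a share of the mRNA in a fraction and not an amount per cell. In a piece of liver, fewer cells of a type and less RNA per cell cannot be told apart.

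Libraries held 16.7 to 62.5 M counts in CryKO livers and 7.07 to 62.1 M counts in WT livers, with the lowest in WT CT. Pre-mRNA took 41.8 to 48.8% of the counts in CryKO NA libraries and 36.02 to 47.26% in WT NA libraries, against 1.28 to 1.87% in CryKO CA libraries and 0.92 to 1.69% in WT CA libraries. The cytoplasmic libraries of WT ZT0 replicate 2 had the lowest TMM factors of their kind, 0.466 in CA and 0.71 in CT. At ZT0 the log2 difference between the 2 mice correlated across genes between NAE and CAE at 0.224 in WT and -0.22 in CryKO. Between NTE and CTE it correlated at 0.019 in WT and -0.159 in CryKO. These values cannot tell which of the 2 mice stood apart. The unfractionated CryKO library of ZT20 replicate 1 had 14.4% pre-mRNA, against 27.01 to 33.84% in the other CryKO UT libraries. Cytoplasmic Cry1 (CAE) had a median of 6.51 CPM in CryKO and 13.4 CPM in WT, and Cry2 13.6 CPM in CryKO and 27.1 CPM in WT. In the nucleus the medians of both were higher in CryKO, with NAE medians of 52.55 CPM in CryKO and 18.1 CPM in WT for Cry1 and 156.0 CPM in CryKO and 114.9 CPM in WT for Cry2, and an NTI median of 579.8 CPM in CryKO and 106.8 CPM in WT for Cry1. The knockout alleles thus still gave reads. The labelled genotypes did not overlap for Cry1 in NTI (414.8 to 728.1 CPM in CryKO and 46.07 to 378.6 CPM in WT). Nor did they for Cry2 in CAE (9.46 to 15.44 CPM in CryKO and 16.58 to 40.52 CPM in WT). In NAE both genes overlapped. The hepatocyte marker list summed to 100200 to 139200 CPM in CryKO UTE and 50590 to 124800 CPM in WT UTE. The sinusoidal endothelium list, 5 of 5 genes detected, summed to 331 to 445 CPM in CryKO UTE and 207 to 340 CPM in WT UTE, and its part in the genotype differences was not tested.

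The sequences of kept introns are shown first, since the transcripts that hold those printed made up a larger share of their gene's mRNA in nuclear than in cytoplasmic poly(A) RNA. Several Rbm genes have an annotated transcript that keeps a whole intron, and the sequences below are where such a transcript leaves the spliced frame. Each starts with 10 bases of the exon before the intron, and capitals mark the first GT and last AG of the intron or the stop codon that ends the reading frame inside it. They were cut from GENCODE vM21 transcripts on GRCm38.
Rbm28-203, whole intron, chr6:29154884-29155036, minus strand: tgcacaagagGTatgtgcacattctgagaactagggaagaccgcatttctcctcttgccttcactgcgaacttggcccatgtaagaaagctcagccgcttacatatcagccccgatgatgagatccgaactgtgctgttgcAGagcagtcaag
Rbm25-206, start of the intron, chr12:83660669-83660708, plus strand: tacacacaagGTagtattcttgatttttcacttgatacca
Rbm14-202, to the stop codon, chr19:4802508-4802560, minus strand: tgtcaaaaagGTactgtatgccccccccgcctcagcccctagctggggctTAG
Rbmx-201, to the stop codon, chrX:57388020-57388070, minus strand: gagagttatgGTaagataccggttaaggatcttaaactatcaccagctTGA
Rbm7-202, to the stop codon, chr9:48490809-48490857, minus strand: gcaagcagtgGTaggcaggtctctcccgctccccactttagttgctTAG
The kept intron of Rbm28-203 is 133 bases long, so that the whole of it is printed. Those of Rbm25-206, Rbm14-202, Rbm7-202 and Rbmx-201 are 3300, 745, 859 and 667 bases long, and the last 3 add 40, 36 and 38 intron bases to the coding sequence before it ends. All of them start with GT and end with AG, the usual splice site letters.

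To place the members, levels were compared per kilobase of transcript (RPKM). In WT UTE the highest were Rbm47 with a median of 57.04 RPKM (36.6 to 80.7 over 12 libraries) and Rbm39 with 54.8 RPKM (47.2 to 61.9), whose ranges overlapped. RBM47 is a cofactor of the APOBEC1 enzyme that edits Apob mRNA, and RBM39 is a splicing factor related to U2AF. Rbm25 (30.5 RPKM), Rbm17 (26.2 RPKM), Rbm42 (20.7 RPKM) and Rbm5 (20.5 RPKM) followed. The lowest apart from the pseudogene Rbm3-ps was Rbm20 at 0.547 RPKM, the regulator of titin splicing in heart. The order differed between the compartments. In WT NAE it was led by Rbm39 (231 RPKM), Rbm25 (124 RPKM), Rbm5 (95.7 RPKM) and Rbmx (50.6 RPKM), and in WT CAE by Rbm17 (61.5 RPKM), Rbm7 (53.7 RPKM), Rbm39 (48.3 RPKM) and Rbm8a (36.4 RPKM). The level of Rbm8a rests on 2 retained-intron transcripts of 464 and 560 bases, and that of Rbm20 on 1 NMD transcript. No coding transcript of either was analysed here, so that their places are uncertain.

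The first comparison asked which Rbm mRNAs were more abundant in nuclear than in cytoplasmic poly(A) RNA of WT livers, with calls made past 2 on the log2 scale in either direction where the adjusted p was also under 0.01 (edgeR quasi-likelihood test, Benjamini-Hochberg adjustment). Of 35 members 8 were higher in the nucleus (17.7% of all genes tested) and 1 was lower (12.1% of all genes tested). The median log2 fold change was 1.09 over the members and 0.29 over all genes, and 22 of 35 members lay above the median of all genes. Without TMM factors the median of all genes moved to 1.33. The split was then 18 higher (35.9% of all genes tested) and none lower (4.85% of all genes tested). Without WT ZT0 replicate 2 it was 8 higher and none lower.

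Among the splicing regulators, 3 of 11 were higher in the nucleus, where 17.7% of all genes tested were. Rbm5, which acts on the splicing of apoptosis genes, had 233, 300.3 and 408 CPM in WT NAE (lowest, median and highest of 12 libraries), against 19.2, 23.3 and 29.3 CPM in WT CAE. Every nuclear library was above every cytoplasmic one, with a log2 fold change of 3.66 ± 0.12 (SE) and an adjusted p of 3.7e-20 in edgeR. Rbmx, the X-linked gene of hnRNP G, had 87.1, 116.1 and 139 CPM in NAE, against 8.59, 12.9 and 15.3 CPM in CAE, again without overlap. Its log2 fold change was 3.18 ± 0.11 (SE). Rbm25, whose protein binds with the U1 snRNP, had 314, 378 and 541 CPM in NAE, against 28.7, 49.5 and 75.3 CPM in CAE, and a log2 fold change of 2.98 ± 0.15 (SE). Rbm39 lay just outside the threshold at 2.00 (1.996 before rounding), with 323, 440 and 564 CPM in NAE and 66.1, 105.6 and 148 CPM in CAE.

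The factors of nuclear decay, export and adenosine methylation had 2 of 6 members higher in the nucleus, against the same 17.7% of all genes tested. Rbm33, whose protein binds the RNA demethylase ALKBH5, had 252, 357 and 529 CPM in NAE, against 21.6, 26.95 and 41.8 CPM in CAE. The groups did not overlap and the log2 fold change was 3.65 ± 0.15 (SE). Rbm26, a partner of nuclear poly(A) RNA decay, had 90.5, 121 and 161 CPM in NAE and 12.9, 18.6 and 30.9 CPM in CAE, with a log2 fold change of 2.6 ± 0.14 (SE). Rbm7 went the other way without passing the threshold, at -1.83. This subunit of the NEXT complex, which hands nuclear RNA to the exosome, had 23.2, 27.1 and 32.3 CPM in NAE, below every value in CAE, where it had 75.7, 96.8 and 115.4 CPM.

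Of the nucleolar factors, Rbm28 had 69.8, 91.97 and 180 CPM in NAE and 20.4, 22.9 and 27.9 CPM in CAE (log2 fold change 2.19 ± 0.15, SE). The neighbours Rbm12b1 and Rbm12b2 lie 44020 bases apart on chromosome 4 and share 69.4% and 62.4% of their 31-base words with other genes, nearly all with each other, so that their split is uncertain. Rbm12b1 had 19.7, 30.5 and 58.7 CPM in NAE and 2.37, 6.497 and 18.9 CPM in CAE. The pair had log2 fold changes of 2.27 ± 0.27 and 2.04 ± 0.23 (SE). Rbm12 was the member that fell, at -2.07 ± 0.28 (SE), with 1.01, 1.64 and 7.24 CPM in NAE and 4.60, 7.96 and 14.4 CPM in CAE, so that its groups overlapped. Rbm12 shares 33.4% of its 31-base words, mostly with a gene model that spans it. Of the members described further on, Rbm42 (91.1%), Rbm4 (64.8%), Rbm10 (56.2%), Rbm8a (22.8%), Rbm14 (16.5%) and Rbm6 (14.4%) also share such words with other genes. The call of Rbm12b2 was lost without WT ZT0 replicate 2, ZT4 replicate 1 or ZT8 replicate 2, and that of Rbm12 without WT ZT0 replicate 2 or either mouse of ZT16.

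**Figure D1:**
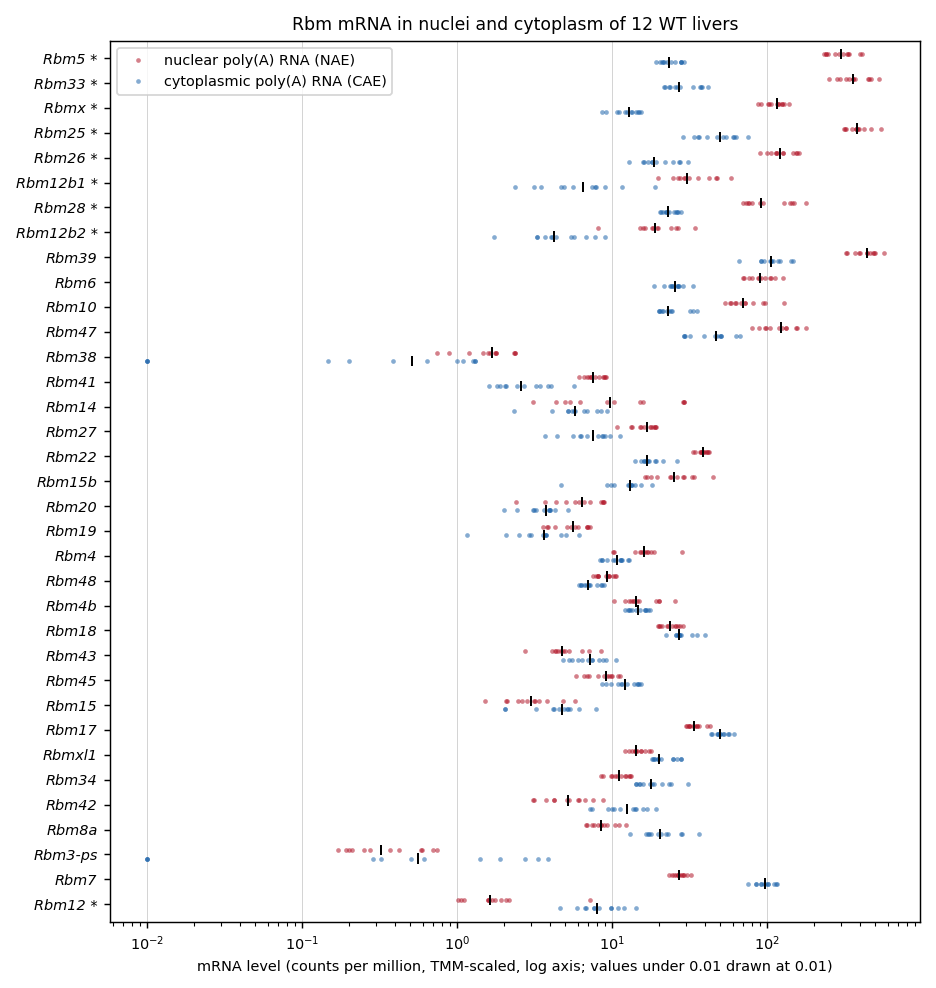
Levels of the 35 Rbm genes in WT nuclear poly(A) mRNA (NAE, red, upper row of each gene) and cytoplasmic poly(A) mRNA (CAE, blue, lower row), in CPM on a log axis; each point is 1 of 12 libraries, the black tick is the median, genes are ordered by log2 fold change and an asterisk marks the 9 called. Rbm5, with a nuclear median of 300.3 CPM against 23.3 CPM in cytoplasm, stands at the top, and Rbm12 and Rbm7 at the bottom have higher cytoplasmic than nuclear medians.

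In ribosome-depleted total RNA (NTE against CTE) the same contrast gave 9 of 34 members higher in the nucleus (12.8% of all genes tested) and 1 lower (10.9% of all genes tested). Rbm5 (3.21 ± 0.12, log2 fold change and SE), Rbm26 (2.91 ± 0.21), Rbmx (2.91 ± 0.09), Rbm25 (2.70 ± 0.17), Rbm33 (2.58 ± 0.12) and Rbm12b2 (2.38 ± 0.31) were called in both kinds of library. Rbm15, the adaptor of the m6A writer complex, was called in total RNA only, at 3.10 ± 0.11, with 136, 153 and 201 CPM in NTE and 12.1, 18.6 and 24.2 CPM in CTE. In poly(A) RNA it had -0.55 and was not called, with a median of 2.98 CPM in NAE and 4.73 CPM in CAE. In the GENCODE vM21 annotation a transcript of Rbm15, one of Rbm15b and one of Rbm4b are as long as their pre-mRNA. The division of reads between mRNA and pre-mRNA is thus uncertain for these 3 genes in every comparison. The pseudogene Rbm3-ps also has such a transcript, and no NT, NA or UT counts of it were assigned to pre-mRNA. Pre-mRNA took a median of 95.3% of Rbm15 counts in WT NA libraries and 42.3% in WT NT libraries. Rbm14, a transcription coactivator of paraspeckles, was called at 2.42 ± 0.18 and Rbm6 at 2.04 ± 0.10, the last not without WT ZT0 replicate 2. Rbm7 was the lower one, at -2.52 ± 0.09. Rbm12 had 1.197 here against -2.07 in poly(A) RNA; the difference between the kinds of library was not tested.

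Partner genes from complexes that hold an Rbm protein were counted beside them. Of 39 tested in poly(A) RNA, 10 were higher in the nucleus (17.7% of all genes tested) and 3 lower (12.1%). Without TMM factors 18 were higher (35.9% of all genes tested) and 1 was lower (4.85%). All 3 genes of the PAXT connection were higher, led by Zfc3h1 (log2 fold change 4.80) and Pabpn1 (4.12). Cwc15 of the NineTeen-related group (-3.24) and Magoh of the exon junction complex (-3.05) were lower. Rbm8a, whose protein pairs with MAGOH, had -1.29 and was not called. Its 2 transcripts in the table are both annotated as retained introns, and its coding transcript was not analysed here.

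The second comparison asked how much pre-mRNA was left in polyadenylated nuclear RNA (NAI) relative to nuclear total RNA (NTI). None of 33 members was higher (0.304% of all genes tested) and 13 were lower (47.2% of all genes tested). At an unadjusted p under 0.05 in edgeR, 1 member was higher, and DESeq2 also called 13 and none higher. The median was -1.46 over the members and -1.89 over all genes. Rbm47 had 30.1, 73.4 and 106.3 CPM in NAI, against 1705, 2624 and 3751 CPM in NTI, at -5.17 ± 0.20 (log2 fold change and SE) and without overlap. Rbm33 had -4.67 ± 0.20 and Rbm27 -6.33 ± 0.22. Rbm12, Rbm4 and Rbm41 were mostly at 0 in NAI, and no fold is given for them. Rbm4b was the member with a positive value, 0.59, which rests on its uncertain division of reads. With TMM factors from the pre-mRNA counts the median of all genes moved to 0.41. Then 1 member was higher (10.9% of all genes tested) and 6 were lower (10.8% of all genes tested).

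The third comparison asked which transcripts of a gene had a larger share of its mRNA in NAE than in CAE, at an adjusted p under 0.01 and an absolute difference from the gene of more than 1 on the log2 scale (edgeR diffSpliceDGE). Of 84 Rbm transcripts tested, 29 had a higher share in the nucleus (27.3% of all transcripts tested) and 14 a lower one (11.4% of all transcripts tested). Within a gene shares sum to a whole, so that a transcript that is higher needs another that is lower. The replicate block by mouse gave 41 calls in place of 43, and Rbm28-202, Rbm25-211 and Rbm5-214 lost theirs. Without WT ZT0 replicate 2, 28 were higher and 12 lower.

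Rbm14 gave the largest difference. All shares in percent are of the gene's mRNA level per kilobase of transcript and not of its counts. Rbm14-202, which reads through the 5′ splice site printed above, made up 98.8 ± 1.59% in NAE (SD, n = 12), against a median of 4.17% and a highest value of 55.5% in CAE. The spliced transcript Rbm14-201 made up 1.21 ± 1.59% in NAE, where its highest value was 3.62%, and a median of 95.8% in CAE, where its lowest was 44.5%. The compartments thus did not overlap for either transcript. In total RNA Rbm14-202 had median shares of 16.03% in NTE and 12.5% in CTE with overlapping ranges, and the short Rbm14-203, at 0.0% in NAE, made up 57.4 ± 11.8% in NTE (SD, n = 12). No WT NT, NA or UT library had Rbm14 counts assigned to pre-mRNA, and the gene overlaps the read-through model Gm21992 on the same strand over 11044 bases, so that these shares are uncertain. In CryKO livers Rbm14-202 made up 99.4% in NAE and 13.8% in CAE, the same order as in WT.

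In Rbm33 different coding transcripts led in the 2 compartments. Rbm33-202, of 9510 bases, made up 94.3 ± 0.64% in NAE and 30.2 ± 10.5% in CAE. Rbm33-204, of 6256 bases, was at 0.00% in NAE and 66.1 ± 9.93% in CAE (SD, n = 12 each). Rbm33-204 holds no bases of the introns of Rbm33-202, which has the longest coding sequence of the gene. Rbmx showed the pattern with an NMD transcript. Rbmx-205, annotated as a target of NMD, made up 82.96 ± 2.67% in NAE and 24.9 ± 5.09% in CAE, while the coding Rbmx-203 made up 0.78% in NAE and 67.9 ± 14.2% in CAE. Rbmx-201, with its kept intron, had 16.3 ± 2.37% in NAE and 2.48 ± 2.49% in CAE. The other kept introns printed above gave the same order, with 20.98 ± 2.89% of Rbm25 in NAE and 1.75 ± 0.63% in CAE for Rbm25-206, and 15.6 ± 7.86% of Rbm7 in NAE and 1.21 ± 0.73% in CAE for Rbm7-202. These are shares within a gene, and Rbm7 as a whole had its higher level in cytoplasm.

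In Rbm28 the retained-intron transcripts Rbm28-203 and Rbm28-204 had shares of 31.5 ± 3.16% and 29.04 ± 5.12% in NAE and 4.43 ± 5.88% and 1.29 ± 1.85% in CAE. The coding Rbm28-202 had 16.2 ± 4.00% in NAE and 53.2 ± 7.59% in CAE, and its call was kept only without WT ZT16 replicate 1 or ZT20 replicate 2. Rbm4b-202 had 0.10% in NAE and 29.3 ± 7.71% in CAE although it is annotated as a retained intron, and Rbm5-224 likewise 8.70 ± 6.47% in NAE and 50.2 ± 21.6% in CAE. Rbm17-202, also of that type, had 7.16 ± 4.25% in NAE and 37.3 ± 8.92% in CAE. None of these 3 keeps a whole intron of the gene's longest coding transcript, although 87.6% of the bases of Rbm4b-202 are intronic. Rbm6-202, annotated as an NMD target, was higher in cytoplasm, with 25.4 ± 6.70% in NAE and 59.95 ± 8.65% in CAE, and was not called without WT ZT0 replicate 2, ZT16 replicate 1 or ZT20 replicate 2.

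To see what the transcripts with a higher nuclear share have in common, each transcript was set against the introns of its gene's transcript with the longest coding sequence. All 10 tested Rbm transcripts that keep a whole intron were called higher in the nucleus, against 1705 of 2425 (70.3%) over all genes. Of 74 without a whole intron, 19 (25.7%) were higher in the nucleus and 14 (18.9%) lower, against 4245 and 2393 of 19291 over all genes. Of the 29 with a higher nuclear share, 16 are annotated as retained introns, 8 as coding, 3 as NMD targets and 2 as processed transcripts, with a median of 43.8% intronic bases. Of all 84 tested, 26 are annotated as retained introns. Among the 14 with a lower nuclear share the median of intronic bases was 0.0%, as among the 41 not called. Of those 14, 6 hold intronic bases. The transcript that defines the introns of its gene has 0.0% by definition and was often itself tested. Such transcripts include Rbm14-201, Rbm26-204, Rbm39-203 and Rbm5-214 among the 14, and Rbm33-202 among the 29. The medians are thus partly set by the measure. Of 46 tested Rbm transcripts with intronic bases, 24 were higher in the nucleus and 6 lower, against 4898 and 982 of 10806 over all genes. Many called Rbm transcripts come from the same gene as another called one. Transcripts of a gene share reads with each other and with the pre-mRNA. Pre-mRNA took 36.02 to 47.26% of the counts in WT NA libraries and 0.92 to 1.69% in WT CA libraries. The part of pre-mRNA reads in these shares was not tested.

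**Figure D2:**
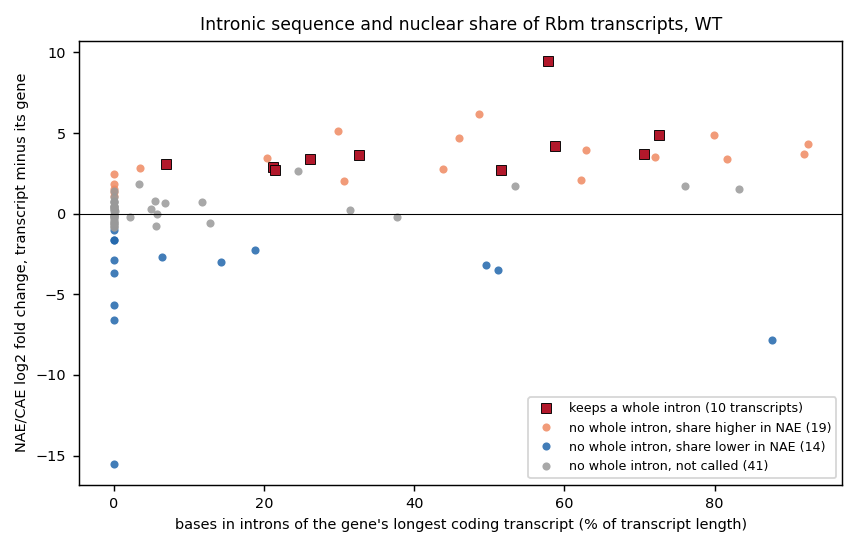
Intronic content of 84 Rbm transcripts (x axis, % of transcript length within introns of the gene's longest coding transcript) against the log2 fold change of NAE over CAE of the transcript minus that of its gene (y axis), in WT livers. The 10 transcripts that keep a whole intron (dark red squares) all lie above 0, and of the others 19 were called higher in NAE, 14 lower and 41 not.

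The transcripts of a gene annotated as protein coding and all its others, called non-coding here, were then summed apart. The non-coding sum thus includes NMD targets such as Rbmx-205, which have an annotated reading frame. The coding sum includes Rbmx-201 and Rbm7-202 with their kept introns. Of 18 members with both sums above 0 in CAE, 13 had the larger log2 ratio of NAE over CAE in the non-coding sum and 5 in the coding sum. For Rbm5 the non-coding sum averaged 290.9 CPM in NAE and 22.3 CPM in CAE, and the coding sum 11.8 CPM in NAE and 1.70 CPM in CAE, so that the log2 ratios were 3.71 and 2.79. For Rbm25 the ratios were 5.60 (non-coding) and 2.12 (coding), for Rbm28 5.56 and 1.43, for Rbmx 4.78 and 1.46, and for Rbm22 5.68 and 0.28. The coding sum of Rbm22, whose protein sits near the catalytic centre of the spliceosome, had 21.3 CPM in NAE and 17.6 CPM in CAE. In Rbm33 both sums were nuclear, at 3.72 and 3.65. The 5 that went the other way were Rbm6 (1.22 non-coding and 2.42 coding), Rbm19 (-1.16 and 1.52), Rbm4b (-0.27 and 0.54), Rbm7 (-2.57 and -1.67) and Rbm41 (-2.73 and 1.47), of which Rbm41 had 0.101 CPM or less in its non-coding sum. Low non-coding sums in CAE were also found among the 13, with 0.016 CPM for Rbm38, 0.028 for Rbm34 and 0.087 for Rbm18. Rbm33 had 0.111 CPM there, Rbm47 0.141 and Rbm22 0.333, so that their ratios are imprecise. The same count over all genes was not made. These sums rest on the same shared reads and were not tested.

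The fourth comparison asked which members had a 24 h rhythm in WT livers (edgeR quasi-likelihood test of a cosine and a sine, adjusted p under 0.05). None of 33 members was rhythmic in NTI (0.563% of all genes tested) and none of 35 in NAE (2.25% of all genes tested). At an unadjusted p under 0.05 there was 1 in NTI and 3 in NAE, and DESeq2 called 1 in each, Rbm27 in NTI and Rbm28 in NAE. In CAE 1 of 34 was called (2.98% of all genes tested), and in UTE 3 of 34 (10.7% of all genes tested). Small rhythms could be missed with 2 mice at each time, so that a member not called may still be rhythmic.

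Rbm25 was called in both. Its UTE means over 2 mice were 81.3, 64.2, 70.5, 93.3, 93.9 and 90.1 CPM at ZT0 to ZT20, a fitted range of 0.56 on the log2 scale with a peak at 16.6 h (adjusted p = 0.0132). The 4 libraries of ZT4 and ZT8 were the lowest, at 62.5 to 73.3 CPM. In CAE the 6 libraries of ZT0 to ZT8 had 28.7 to 47.3 CPM and the 6 of ZT12 to ZT20 had 51.6 to 75.3 CPM, a fitted range of 0.99 with a peak at 15.8 h (adjusted p = 0.0392). That call was lost without either mouse of ZT8, ZT12, ZT16 or ZT20, and with the replicate number as a block. Rbm33 peaked at 8.7 h in UTE, with means of 80.6, 96.7, 116.1, 116.7, 75.8 and 80.6 CPM and a range of 0.65 (adjusted p = 0.0138). Its 4 libraries of ZT8 and ZT12 were above all other 8, of which ZT4 replicate 2 was the highest at 104.6 CPM. Rbm17, a factor at the 3′ splice site, had the small range of 0.33 with a peak at 5.6 h (means of 34.07, 37.08, 38.02, 32.73, 30.47 and 31.09 CPM, adjusted p = 0.0278), and its call was kept only without either mouse of ZT0, ZT4 replicate 1, ZT12 replicate 2 or ZT20 replicate 2. None of 39 partner genes was rhythmic in CAE (2.98% of all genes tested) or UTE (10.7% of all genes tested).

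The difference in rhythm between genotypes was called for none of 35 members in NAE (0.717% of all genes tested) and none of 33 in CAE (0.707% of all genes tested). At an unadjusted p under 0.05 there were 1 in NAE and 6 in CAE, and DESeq2 called none in NAE and 1 in CAE, which was Rbm25 (adjusted p = 0.0928 in edgeR). In CryKO CAE Rbm25 stayed between 46.2 and 73.5 CPM at all times, against 28.7 to 75.3 CPM in WT.

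**Figure D3:**
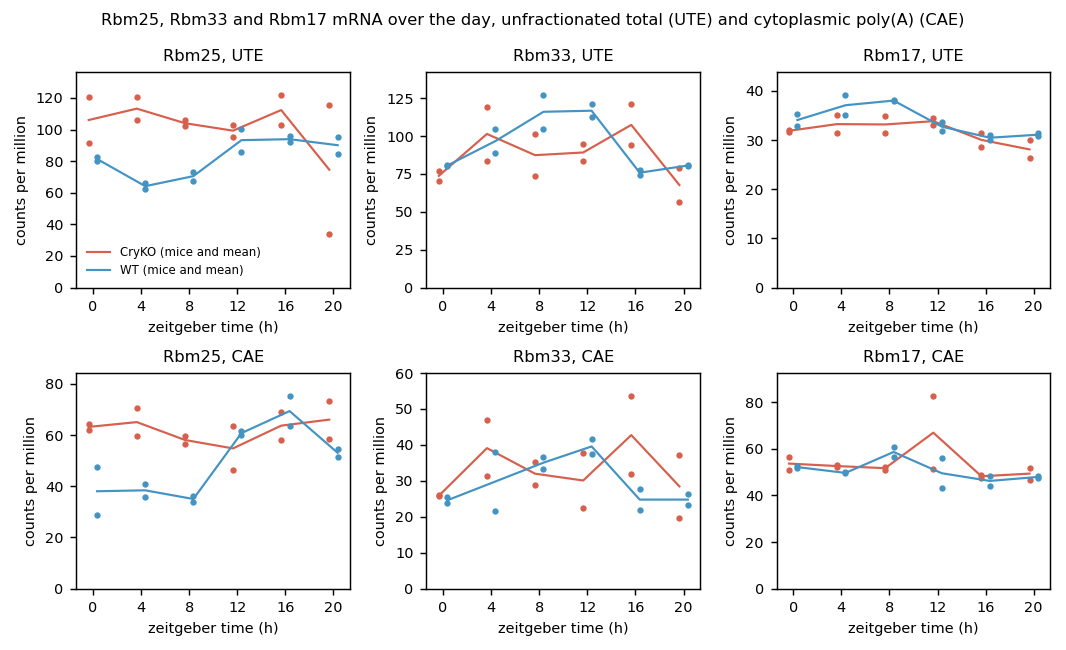
Levels of Rbm25, Rbm33 and Rbm17 (CPM) by zeitgeber time (h), in unfractionated total mRNA (UTE, top) and cytoplasmic poly(A) mRNA (CAE, bottom); points are single mice and lines the means of 2 mice, CryKO in red and WT in blue. WT Rbm25 is lowest at ZT4 and ZT8 in UTE (62.5 to 73.3 CPM), and the low CryKO point at ZT20 in UTE (33.9 CPM) is the library with little pre-mRNA.

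The fifth comparison set CryKO against WT livers, with time of day in the fit and an adjusted p under 0.05 in edgeR. In NTI, 24 of 33 members were higher in CryKO (45.4% of all genes tested) and 1 was lower (4.00% of all genes tested). The median log2 fold change was 0.49 over the members and 0.31 over all genes, with 24 of 33 members above the median of all genes. With TMM factors from the pre-mRNA counts the median of all genes was -0.04. Then 10 members were higher (13.2% of all genes tested) and 4 lower (17.7% of all genes tested).

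Rbm15 had the largest change, although on an uncertain division of its reads, with 199, 267 and 319 CPM in CryKO NTI and 74.1, 120 and 142 CPM in WT NTI (lowest, median and highest of 12 libraries each). All CryKO libraries were above all WT libraries, with a log2 fold change of 1.19 ± 0.12 (SE, adjusted p = 8.4e-07), or 0.88 above the median of all genes. The sum of its pre-mRNA and mRNA averaged 329 CPM in CryKO NT and 277.5 CPM in WT NT, a log2 ratio of 0.25. Rbm4b, a paralogue of the splicing factor RBM4 that also acts on Per1 translation in mouse, had 38.1, 61.6 and 80.2 CPM in CryKO and 17.9, 27.96 and 37.4 CPM in WT, at 1.05 ± 0.13 and again without overlap. Its division of reads is uncertain too, and its sum averaged 101.6 CPM in CryKO NT and 56.7 CPM in WT NT, a log2 ratio of 0.84. Rbm12b1 had 234, 279 and 335 CPM in CryKO and 97.2, 157 and 212 CPM in WT (0.89 ± 0.12), and Rbm12b2 went with it at 0.85 ± 0.09, with the shared sequence noted above. Rbm25 had 715, 992 and 1236 CPM in CryKO and 435, 564 and 831 CPM in WT (0.76 ± 0.11), with some overlap. Rbm12 had 0.87 ± 0.34, and its call was lost in 15 of 24 fits that left out 1 mouse. The member that fell was Rbm15b, the paralogue of Rbm15, with 1.44, 3.26 and 6.33 CPM in CryKO and 2.96, 5.94 and 10.6 CPM in WT (-0.95 ± 0.23). Rbm15b-201 covers all 6511 bases of its gene, so that its mRNA and pre-mRNA have the same sequence, and the sum of both averaged 37.2 CPM in CryKO NT and 40.9 CPM in WT NT (log2 ratio -0.14). Rbm15b also lies wholly within Manf on the same strand. Pre-mRNA took 76.2 to 81.1% of NT counts in CryKO and 71.99 to 78.74% in WT, and its part in these changes was not tested.

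In NAE 4 of 35 members were higher in CryKO (7.19% of all genes tested) and none was lower (9.76% of all genes tested). At an unadjusted p under 0.05 in edgeR, 9 were higher and 1 was lower, and DESeq2 called 6 higher and none lower. Rbm12b2 (log2 fold change 0.51 ± 0.17, SE), Rbm12b1 (0.50 ± 0.16), Rbm6 (0.29 ± 0.09) and Rbm17 (0.19 ± 0.06) were called, each with overlapping groups. Rbm12b1 had 31.1, 49.04 and 75.3 CPM in CryKO and 19.7, 30.5 and 58.7 CPM in WT. Their calls were lost in 17, 12, 13 and 16 of the 24 fits that left out 1 mouse, in the same order, and no member was called without CryKO ZT4 replicate 2, ZT8 replicate 2, ZT12 replicate 1 or ZT20 replicate 2, or without WT ZT8 replicate 1 or ZT12 replicate 1.

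In CAE 5 of 33 members were higher in CryKO (17.5% of all genes tested) and 3 were lower (18.6% of all genes tested), shares near or below those of all genes. Without TMM factors the median of all genes moved to 0.36. Then 22 members were higher (48.4% of all genes tested) and none lower (5.21% of all genes tested). Rbm4b had 16.7, 19.5 and 23.3 CPM in CryKO and 12.1, 14.7 and 17.6 CPM in WT, with 11 of 12 CryKO libraries above all WT libraries (0.43 ± 0.08, adjusted p = 3.4e-04). Rbm14 (0.57 ± 0.16), Rbm15b (0.50 ± 0.16), Rbm25 (0.38 ± 0.12) and Rbm19 (0.61 ± 0.22) were also higher. RBM19 is needed for rRNA processing in the nucleolus, and its call was lost in 8 of 24 fits that left out 1 mouse. Rbm25 had 46.2, 60.8 and 73.5 CPM in CryKO and 28.7, 49.5 and 75.3 CPM in WT, so that the WT libraries spanned the CryKO ones. Rbm7 fell to 51.3, 72.8 and 103.5 CPM in CryKO, against 75.7, 96.8 and 115.4 CPM in WT (-0.40 ± 0.10), with 8 of 12 CryKO libraries below all WT libraries. Rbm10 had 13.7, 18.3 and 24.6 CPM in CryKO and 19.99, 22.95 and 35.3 CPM in WT (-0.37 ± 0.10), and it shares 45.4% of its 31-base words with Gm12799, so that its reads are uncertain. Rbm8a had -0.36 ± 0.13, and its call was lost in 16 of 24 fits that left out 1 mouse and its direction without TMM factors.

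In UTE 6 of 34 members were higher in CryKO (19.7% of all genes tested) and 5 were lower (28.3% of all genes tested). Without the CryKO library of ZT20 replicate 1, which stood apart in its pre-mRNA share, 13 were higher and 7 lower. Rbm15 had 17.1, 23.8 and 29.7 CPM in CryKO and 39.8, 44.95 and 54.3 CPM in WT (-0.95 ± 0.08, adjusted p = 1.5e-08), so that all CryKO libraries were below all WT libraries. Its nuclear total mRNA moved the same way, with 33.7, 67.3 and 94.2 CPM in CryKO NTE and 136, 153 and 201 CPM in WT NTE, while its pre-mRNA was higher in CryKO. Pre-mRNA took a median of 61.3% of its counts in CryKO UT and 18.8% in WT UT, and 79.6% in CryKO NT and 42.3% in WT NT. The sum of both differed by 0.15 on the log2 scale in UT and, as above, by 0.25 in NT, in each case higher in CryKO.

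Rbm14 had 10.98, 15.3 and 22.5 CPM in CryKO UTE and 19.8, 23.3 and 37.2 CPM in WT UTE (-0.72 ± 0.11), with 10 of 12 CryKO libraries below all WT libraries. Its nuclear total mRNA was at a median of 20.0 CPM in CryKO NTE and 43.5 CPM in WT NTE, opposite to its direction in CAE. Rbm42, a protein of the spliceosomal tri-snRNP, had 20.8, 23.4 and 30.5 CPM in CryKO and 26.9, 32.9 and 40.3 CPM in WT (-0.51 ± 0.06). It shares 91.1% of its 31-base words with a read-through gene model. Rbm38, a regulator of mRNA stability, fell to 1.11, 1.92 and 2.83 CPM in CryKO, against 1.78, 3.59 and 6.81 CPM in WT (-0.85 ± 0.19), and Rbm10 had -0.17 ± 0.06. Rbm4b was higher as in CAE, with 12.2, 14.1 and 17.5 CPM in CryKO and 8.37, 10.5 and 12.8 CPM in WT (0.45 ± 0.07). Rbm12 (0.46 ± 0.17), Rbm18 (0.29 ± 0.06), Rbmx (0.27 ± 0.07), Rbm34 (0.25 ± 0.08) and Rbm5 (0.23 ± 0.08) were the other higher members, and the call of Rbm12 was lost in 10 of 24 fits that left out 1 mouse.

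**Figure D4:**
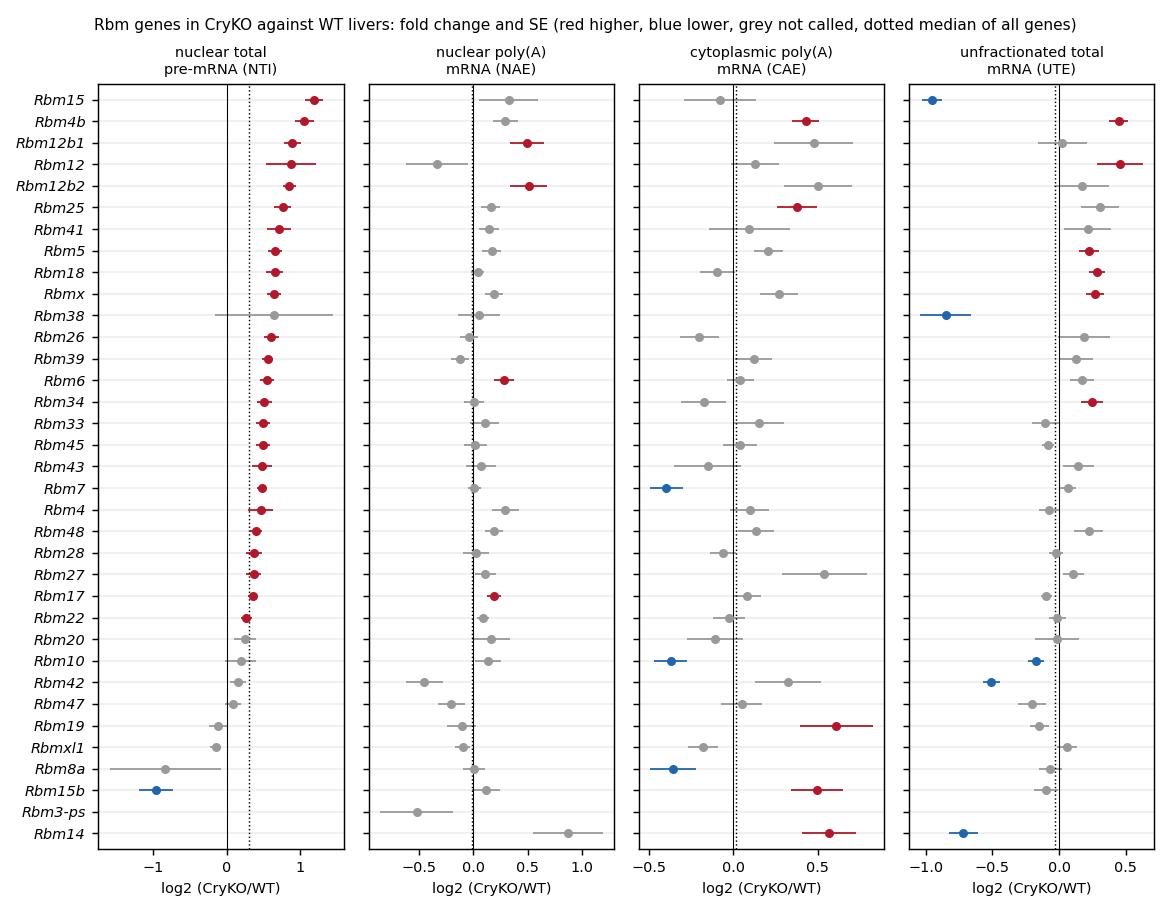
Log2 fold change of CryKO over WT for the Rbm genes in NTI, NAE, CAE and UTE (4 panels); points are estimates and bars are SE, with genes called higher in red, lower in blue and not called in grey, and the dotted line marks the median of all genes. Rbm15, whose reads are divided uncertainly between pre-mRNA and mRNA, is highest in NTI at 1.19 and lowest in UTE at -0.95, and Rbm4b is to the right of 0 in every panel.

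Of the partner genes, 25 of 38 were higher in CryKO NTI (45.4% of all genes tested) and 1, Syncrip of the editing group, was lower (-0.47, 4.00% of all genes tested). With TMM factors from the pre-mRNA counts 10 were higher (13.2% of all genes tested) and 3 lower (17.7%). In CAE 10 of 39 were higher (17.5%) and 8 lower (18.6%), with Aqr of the NineTeen-related group at 0.73. Apobec1, the editing enzyme that RBM47 assists, was at -0.71. Without TMM factors 27 were higher in CAE (48.4% of all genes tested) and 3 lower (5.21%). In UTE 11 were higher (19.7%) and 11 lower (28.3%).

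The NAE/CAE ratio differed between genotypes for 1 of 34 members in the higher direction (3.90% of all genes tested) and for 1 in the lower direction (3.37% of all genes tested), by the interaction term at an adjusted p under 0.05. Without TMM factors the median of all genes moved to -0.36 and none was higher and 10 were lower. Rbm7 had a higher ratio in CryKO by 0.40 ± 0.11 on the log2 scale (SE, adjusted p = 0.0217). Its NAE level was 22.6, 27.4 and 31.8 CPM in CryKO and 23.2, 27.1 and 32.3 CPM in WT, which overlapped. Its cytoplasmic level is given above. Rbm42 had a lower ratio, by -0.77 ± 0.25 (adjusted p = 0.0463), with 2.90, 3.90 and 5.80 CPM in CryKO NAE and 3.10, 5.21 and 8.72 CPM in WT NAE. That call was lost in 18 of 24 fits that left out 1 mouse. The replicate block by mouse gave 3 calls, and without WT ZT0 replicate 2 a pair was higher and none lower.

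Transcript shares were also compared between genotypes. Of 100 Rbm transcripts tested in NAE, 1 was called (0.488% of all transcripts tested), and of 51 in CAE none was (1.62% of all transcripts tested). In CAE none had an unadjusted p under 0.05 in edgeR diffSpliceDGE either, and no other tool was run. The called transcript was Rbm25-211, annotated as a processed transcript, at -2.74 on the log2 scale relative to its gene (adjusted p = 0.016). It made up 0.28 ± 0.41% of the Rbm25 mRNA level per kilobase of transcript in CryKO NAE and 0.93 ± 0.74% in WT NAE (SD, n = 12 each). Its call was lost without CryKO ZT0 replicate 1, ZT12 replicate 2 or either mouse of ZT8. It was also lost without WT ZT0 replicate 2, ZT8 replicate 1 or ZT12 replicate 2.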

How the data were processed

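RNA of 120 mouse liver libraries (2 genotypes, 5 populations, 6 times, 2 mice each) was sequenced by the authors as 65 nt single reads, from poly(A) (TruSeq stranded mRNA) or ribosome-depleted (KAPA RiboErase) RNA. Rat liver RNA was added to the nuclear and cytoplasmic RNA and was not used here. The authors quantified pre-mRNA and mRNA together with kallisto 0.46.0 on GRCm38 and filtered isoforms, and deposited estimated counts per gene and per transcript, not normalized. Kallisto divides reads that several transcripts share, so that near-identical genes, overlapping genes and kept introns are uncertain. Of 12383 gene rows deposited, 131 repeated the symbol and values of another row and were dropped, which left 12252.

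Expected counts were rounded and scaled by TMM factors of the mRNA counts, for pre-mRNA too. Features with 10 or more counts in as many libraries as the smaller group holds (for the rhythm, in 6 or more of the 12) were tested by the edgeR 4.0.16 quasi-likelihood test in R 4.3.3, with Benjamini-Hochberg adjustment over all genes or transcripts (shares by its diffSpliceDGE). Scripts were tested on simulated data. The alternatives were DESeq2 1.42.0, other scaling, no filter, each mouse left out and a replicate block. Added after seeing the data were TMM factors of the compared libraries only, a crossed block and other scaling for the partner genes. In WT, same-numbered libraries were taken as those of 1 mouse, and the log2 difference between the 2 mice of a time correlated across genes at 0.224 to 0.589 between NAE and CAE and at 0.019 to 0.541 between NTE and CTE, lowest at ZT0. In CryKO it was -0.22 to 0.542 between NAE and CAE, negative at ZT0 only. The crossed block exchanged the numbers of the 2 CryKO CA libraries of ZT0.

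Members are named with values where they passed. Where more than 10 passed in a direction, the 6 with the largest change and any that went against most are named. The members and lists were chosen with earlier results of these data known. Mice of a group were separate animals. Depth limits the precision of low members, such as Rbm12 and Rbm19.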

Additional observations from a re-analysis of the deposited data

Results flagged for a closer look

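The NAE/CAE ratio differed between genotypes by an interaction test for a pair of members. For Rbm7 the log2 ratio was higher in CryKO by 0.398 ± 0.112 (SE, adjusted p = 0.0217 in edgeR), and the call was kept in all 24 fits that left out 1 mouse. For Rbm42 it differed by -0.774 ± 0.249 (adjusted p = 0.0463 in edgeR), and the call was kept only without CryKO replicate 1 of ZT0, ZT4 or ZT8, WT ZT4 replicate 2 or either WT mouse of ZT8. Rbm42 shares 91.1% of its 31-base words with a read-through model.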

How the results depend on the processing

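Of 2814 values recomputed for 130 single members and transcripts, 2587 kept their direction and side of the threshold, 224 kept the direction only and 3 reversed; the cause was not tested. Those were Rbm12b2 in NAI/NTI at 0.068 and Rbm22 in CryKO NTI at -0.078 with TMM factors from pre-mRNA counts, and Rbm8a in CryKO CAE at 0.009 without TMM factors. Without TMM factors, 18 members were called for NAE/CAE, 0 for the CAE rhythm, 22 for CryKO CAE and 10 for the ratio by genotype. With TMM factors from pre-mRNA counts, 7 were called for NAI/NTI, 1 for the NTI rhythm (Rbm27) and 14 for CryKO NTI. DESeq2 called 1 for the NTI rhythm, 1 for the NAE rhythm, 4 for the CAE rhythm, 1 for the rhythm difference in CAE and 4 for the ratio. With TMM factors of the compared libraries only, 0 were called for the CAE rhythm. With no filter, 0 transcripts were called between genotypes in NAE and 2 in CAE.

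With mice left out in turn, calls ranged from 8 to 10 for NAE/CAE, 9 to 10 for NTE/CTE, 13 to 14 for NAI/NTI, 0 to 0 for the rhythm in NTI, 0 to 1 in NAE, 0 to 2 in CAE and 2 to 3 in UTE, 23 to 25 for CryKO NTI, 0 to 5 for NAE, 6 to 10 for CAE and 10 to 20 for UTE, 0 to 0 and 0 to 1 for the rhythm difference in NAE and CAE, 1 to 3 for the ratio, 39 to 42 for transcript shares between compartments, and 0 to 2 and 0 to 0 for those between genotypes in NAE and CAE.

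With the replicate block, 10 members were called for NAE/CAE, 10 for NTE/CTE, 13 for NAI/NTI, 0, 0, 0 and 3 for the rhythm in NTI, NAE, CAE and UTE, 25, 4, 8 and 11 for CryKO NTI, NAE, CAE and UTE, 0 for both rhythm differences, 3 for the ratio, and 41, 1 and 0 transcripts for shares. The block thus ended the CAE rhythm call of Rbm25. A block with the CryKO ZT0 numbers crossed gave 4 calls for the ratio.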
